A study of Arabidopsis thaliana with 4 samples.

Results

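The closely paired FUL sites were 687 of the 2831 sites in the deposited list of FUL binding sites (24.3%), whatever their score. A site was a member when the position of its maximum lay 100 to 2000 bp from the maximum of another listed site on the same chromosome, and 15 sites in the ribosomal RNA cluster of chromosome 3 were left out beforehand. The other 2129 sites had no partner in that range and are called unpaired. The rule used positions only, and the score did not enter it. The list reaches further down than the sites that the study took as significant by their false discovery rate, and it gives no such rate for a site. A stricter score limit of 5.6 is used beside the full list. It is a setting taken from earlier work on this series, whereas the study set its limit by false discovery rate and names no score. The lowest peak score seen in the study's published list of significant loci, which was read in part, was 5.6. Of the 687 members, 490 scored below it.

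FRUITFULL (FUL, also named AGL8) is a MADS domain transcription factor of *Arabidopsis thaliana*. The study immunoprecipitated a FUL-GFP fusion with an antibody against GFP from pistils and siliques (the young fruits) of stages 12 to 16, in *ful-1* mutant plants of mixed Col/Ler background. The fusion was driven by the *FUL* promoter (pFUL:FUL-GFP), so that the fusion was made where this promoter is active, and every library came from this single genotype. There were 2 ChIP libraries and 2 libraries of input DNA, the input being the only control, and no immunoprecipitation from plants without GFP was analysed here. Each listed site had a start, an end, a maximum and 1 score, the enrichment over input that the authors combined over both replicates. The score had no error and no read number, so the depth behind it is unknown, and no difference between scores could be set against a replicate spread.

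MADS domain proteins bind DNA as dimers at CArG boxes, short sequences with CC at one end, GG at the other and a run of A and T bases between them. Dimers can join into tetramers that hold a pair of CArG boxes at once and loop the DNA between them, which is how the floral homeotic complexes are thought to select some of their targets. Sites that lie close together are therefore of interest, although a ChIP list can also hold separately listed maxima within one broad region of enrichment.

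The sequences below carry the CArG boxes of the paired sites that the results return to. The search took CC, 6 bases that were each A or T, and GG, within 100 bp of a maximum. This pattern, though not each single box, is the same on both strands. Each line gives the box in capitals with 10 bases to each side, on the plus strand of the RefSeq TAIR10.1 assembly.
The pair behind *RAD51B*, member farther from the gene, chr2:12232852-12232881: gtaaattattCCAAATTTGGttactcccaa
The pair behind *RAD51B*, member nearer to the gene, chr2:12234339-12234368: agcagtgtttCCTTTAATGGttagaatctc
*SAUR10*, the member nearer to the gene, chr2:7832511-7832540: tcaataatgtCCAAATATGGtaacaaaata
*SOC1*, the member farther from the gene, chr2:18811817-18811846: aaaaaaatatCCTTTTTTGGagataaaatt
*PAR1*, the member upstream of the gene, chr2:17838551-17838580: acgtgtcaacCCTTTTTTGGgtccccccca
*CBF2*, the member in the untranslated exon, chr4:13015400-13015429: agctataataCCAAAAATGGaaataaaaat
Between *LOG8* and *AT5G11960*, chr5:3858036-3858065: tgatttggtaCCAATATAGGttaagcccca
*LSH6*, upstream member, chr1:2176407-2176436: tctccaccatCCAAATATGGaaaaattaaa

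The 687 sites formed 392 adjacent pairs, that is, consecutive maxima within the limits, in 295 separate groups. A group of exactly 2 sites was the usual case with 238 groups. There were 31 groups of 3, 18 of 4, 4 of 5, 2 of 6 and 2 of 7 sites. Chromosome 1 held 197 members, chromosome 5 134, chromosome 3 127, chromosome 4 121 and chromosome 2 108.

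The distance between the maxima of an adjacent pair had a median of 723 bp, with quartiles of 356 and 1262 bp. Counted in bins of 250 bp, 75 pairs of consecutive maxima were 250 to 500 bp apart, and 65 were closer than 250 bp, where the first bin was filled only from 110 bp on. The number declined to 24 pairs between 1750 and 2000 bp, and the next bins beyond the limit held 28 and 28 pairs. The distances therefore ran on across the upper limit without a step there. At this limit, the last pairs inside it were 1997, 1985 and 1983 bp apart, and the first ones outside it were 2029, 2030 and 2031 bp apart.

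**Figure D1:**
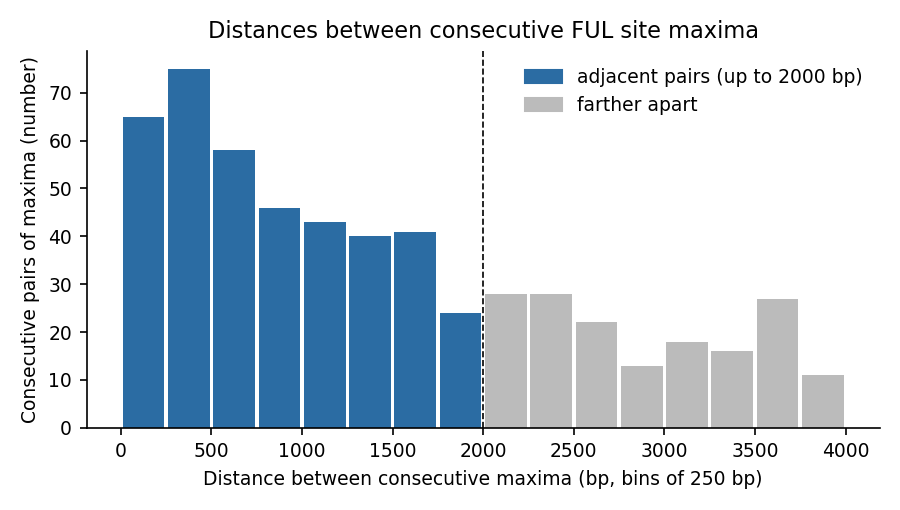
Number of pairs of consecutive FUL site maxima (y axis) by the distance between them in bp (x axis, bins of 250 bp), over all chromosomes without the ribosomal RNA cluster. Blue bars are the adjacent pairs, grey bars are farther apart, and the count falls from 75 in the second bin to 24 in the last bin before the dashed limit of 2000 bp.

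The lower limit of 100 bp excluded no pair. In the whole list no consecutive maxima were closer than 110 bp, and no site began within less than 101 bp of the end of the site before it. Enrichment peaks closer than that were not listed apart, so that shorter distances cannot be read from these data. The closest pairs were in *AT3G11280*, a gene for a homeodomain-like protein (110 bp, scores of 3.73 and 3.79), in *NATA1*, an acetyltransferase gene (114 bp, scores of 3.14 and 3.30), and in *PMR6*, which encodes a pectin lyase-like protein (117 bp, both scores 3.4). In each of these 3 pairs both maxima lay within the gene, and the listed lengths were 8 and 81, 8 and 31, and 6 and 40 bp.

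In 101 of the 392 pairs (25.8%, 95% Wilson interval 21.7 to 30.3%) fewer than 200 bp separated the end of one site from the start of the next. These pairs had a median higher score of 4.43, against 6.42 in the 291 pairs with a larger gap. All intervals given for shares cover counting error only, and sites of a group are not independent of each other. Whether such neighbouring maxima were separate binding events or parts of one region was not tested.

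Most paired sites had low scores, as did the unpaired ones. The median score was 4.37 for paired sites (quartiles 3.4 and 6.81) and 4.43 for unpaired sites (quartiles 3.4 and 6.81). The stricter limit of 5.6 was reached by 197 paired sites (28.7%, 25.4 to 32.2%) and by 634 unpaired sites (29.8%, 27.9 to 31.8%), and these intervals overlapped. The highest score of a paired site was 99.32, whereas the unpaired sites reached 285.25. Scores took few distinct values, 234 over the whole list, and 689 sites of the list shared the score 3.4.

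Within an adjacent pair, the higher score was a median of 1.35 times the lower one (quartiles 1.13 and 2.00). The scores were equal in 37 pairs (9.44%, 6.93 to 12.7%) and within 1.5-fold in 229 pairs (58.4%). A ratio of 2 or more was found in 105 pairs (26.8%, 22.6 to 31.4%), of 5 or more in 18 and of 10 or more in 5. The 542 consecutive maxima that lay more than 2000 and up to 10000 bp apart had a median ratio of 1.58 (quartiles 1.2 and 2.39). Spearman's rho between the scores of the left and right member was 0.17 over the 392 pairs and 0.07 over those 542, where the points share libraries and many tied scores. These are descriptions, and the difference between them was not tested.

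Both members reached 5.6 in 40 pairs (10.2%), 1 member did so in 149 pairs (38.0%) and neither did in 203 pairs (51.8%). Both members had a score of at least 10 in 14 pairs. The median lower score was 3.4 and the median higher score 5.57, where the order within a pair follows from sorting its members by score.

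**Figure D2:**
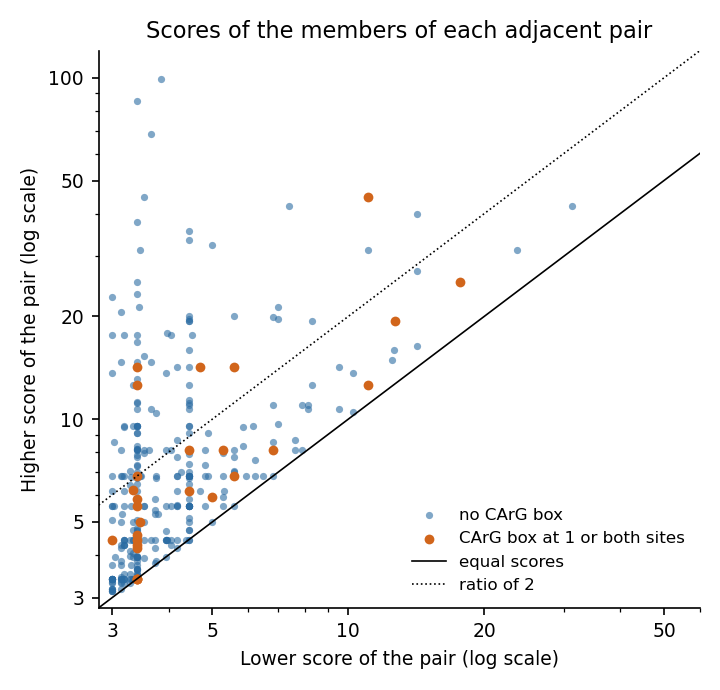
Lower score (x axis, log scale) against higher score (y axis, log scale) of each of the 392 adjacent pairs, 1 point per pair. The solid line marks equal scores and the dotted line a ratio of 2, orange points have a CArG box within 100 bp of 1 or both maxima, and 105 pairs lie on or above the dotted line.

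The most unequal pair lay nearest to *AT1G11560*. The gene windows of *XTH8*, a gene for a xyloglucan endotransglucosylase of the cell wall, and of *NTL* also held both of its maxima. The stronger member of this pair had a score of 99.32 and was situated between *XTH8* and *AT1G11560*. The weaker one, inside *AT1G11560*, had 3.85, a ratio of 25.8. The stronger maximum was also 95 bp from an annotated tRNA gene. Across all paired sites, 7 of 687 (1.02%) lay within 200 bp of a tRNA gene, against 19 of 2129 unpaired sites (0.89%). The next pair, with 85.35 and 3.4 at a distance of 429 bp, was on chromosome 4 between protein-coding genes and nearest to *LEJ2*, 2325 bp from it. The stronger of its maxima fell in the annotated long noncoding RNA *AT4G09415*. The interval of this pair was divergent, so that both neighbouring protein-coding genes read away from it. No protein-coding gene window held both maxima. In the last of these 3 pairs, *GH3.3*, an auxin-conjugating enzyme, had a site of 68.54 outside the gene, 206 bp from its transcribed region, and one of 3.65 in its coding sequence, 1612 bp apart. In all 3 cases the weaker member scored below the median of the list, 4.43.

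The strongest pair by its lower score was at *AT4G29780*, which is annotated as a nuclease gene. Its maxima were 1416 bp apart, with a score of 31.31 in the coding exon and 42.15 at a position 79 bp behind the gene. These were broad sites, 2020 and 621 bp long, while the median length was 105 bp for paired and 129 bp for unpaired sites. *ERF4*, a repressor of the ethylene response, followed with 23.62 in its coding exon and 31.29 at 139 bp behind the gene, 873 bp away. The lengths here were 967 and 531 bp. Neither of these pairs had a CArG box, even with 1 mismatch allowed, within 100 bp of a maximum.

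The next pairs in this order included several upstream regions. *SAUR10* (*AT2G18010*), a member of the family of small auxin upregulated RNAs that promote cell expansion, had scores of 17.65 at 2667 bp and 25.16 at 1432 bp upstream of the start codon. The nearer, stronger site held the CArG box shown above, 55.5 bp from its maximum, and the farther one lay in the annotated long noncoding RNA *AT2G07025*. *ZFP7*, a zinc finger protein gene, had 27.16 in an untranslated exon and 14.22 at a distance of 1420 bp, which was 1263 bp outside the gene. The *FUL* gene itself had 16.36 at 250 bp and 14.20 at 1176 bp upstream of its start codon, without an exact CArG box at either. As far as the promoter in the transgene holds this sequence, its reads and those of the mutant *FUL* locus cannot be told apart.

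The remaining strong pairs were of mixed kind. On chromosome 5, scores of 40.02 and 14.22 were found 1253 bp apart in the interval behind *IMS2*, a gene of the isopropylmalate synthase family, the first of them 274 bp from the gene, and no gene window held both. Another pair there had 12.68 in the last untranslated part of *LOG8*, whose family activates cytokinins, and 19.45 with a box 442 bp from *AT5G11960*, 860 bp apart. In *AT4G32020* both maxima lay in the gene, with 15.90 and 12.59 at a distance of 1222 bp, although only the window of its neighbour *AT4G32030* held both. A pair on chromosome 4 had 14.90 and 12.52 at a distance of 482 bp, but the sites were 44 and 41 bp long, lay 13183 and 12701 bp from the nearest protein-coding gene, and the window of 100 bp to each side of the second maximum had 12 further copies in the genome. The same 30 bases occurred within 100 bp of both of its maxima, with the nearest match to a CArG box (1 mismatch) in capitals. These matches were centred 70.5 and 86.5 bp from the maxima, outside the short listed sites.
First maximum, chr4:3054376-3054405: taccgtgaggCCAAACTTGGcatgtgatac
Second maximum, chr4:3054874-3054903: taccgtgaggCCAAACTTGGcatgtgatac
The tenth place was shared at a lower score of 11.03 by *SOC1*, *CBF2* and the pair that directly follows the one at *ERF4*.

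Copied sequence was otherwise rare among the pairs. A window with at least 1 further copy, at an identity of 95% or more over at least 80% of its length, was present at 17 paired sites (2.47%, 1.55 to 3.93%) and 31 unpaired sites (1.46%, 1.03 to 2.06%). They belonged to 13 pairs, and in 0 pairs were both windows copies of each other. The group of 4 sites at *AT2G01008*, at the very start of chromosome 2, had further copies at each of its sites, which scored 7, 19.59, 4.43 and 5.83.

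A CArG box lay within 100 bp of 26 of the 687 paired maxima (3.78%, 2.60 to 5.49%). The share was 108 of 2129 at unpaired maxima (5.07%, 4.22 to 6.09%), and 1.24% in the 591719 windows of the same length that tile the chromosomes. The interval of the paired sites thus overlapped with that of the unpaired ones and lay above the value of the tiled windows. Among sites with a score of at least 5.6 the shares were 6.60% of 197 paired (3.90 to 11.0%) and 10.3% of 634 unpaired sites (8.13 to 12.9%). Below that score they were 2.65% of 490 and 2.88% of 1495 sites. Where a box was found, its centre was a median of 28 bp from the maximum for paired and 32.5 bp for unpaired sites. The search window of 100 bp to each side bounds this distance by construction. Paired sites with a box had a median score of 5.74, against 4.27 without.

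**Figure D3:**
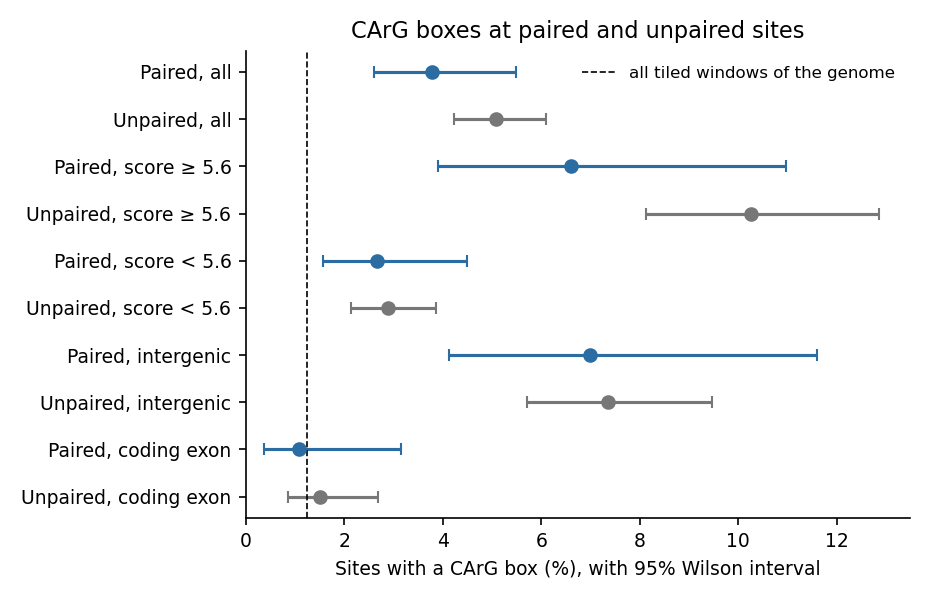
Percentage of sites whose maximum had a CArG box at most 100 bp away (x axis) for paired (blue) and unpaired (grey) sites, for all sites, by score and by location. Points are shares, bars are 95% Wilson intervals, and the dashed line is the share of 1.24% in all tiled windows of the genome, above which the interval for all paired sites starts, at 2.60%.

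A single pair had a box at both maxima. This pair lay between protein-coding genes on chromosome 2, with scores of 6.81 and 8.14 and a spacing of 1526 bp. The boxes printed first above were 1487 bp apart. The nearest protein-coding gene was *RAD51B*, a DNA repair gene whose end faces the pair, 1527 bp from the stronger maximum and 3053 bp from the weaker, and no protein-coding gene had both sites within its window. The interval was tandem, so the protein-coding gene on its other side, farther away, has its start toward the pair. In 26 pairs (6.63%) there was a box at only 1 member, and in 365 (93.1%) at neither. These 26 pairs held 24 sites with a box, since the ones at *LSH6* and behind *ERF4* each had an adjacent partner on both sides. Of the 24 sites, 15 scored higher than their adjacent partners, 6 lower and 3 the same. Over the 26 pairs, the member with the box had a median score of 5.74 and its partner 4.64.

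Looser matches with 1 mismatch were common everywhere, at 28.5% of paired sites, 33.4% of unpaired sites and 22.5% of tiled windows, and 34 pairs had such a match at both maxima. The G-box CACGTG, which is bound by bHLH and bZIP factors, was more frequent than the exact CArG box. It was present at 11.9% of paired sites (9.72 to 14.6%), 13.6% of unpaired sites (12.2 to 15.1%) and 2.21% of tiled windows. For TGTCTC, the element known for auxin response factors, on either strand the shares were 14.4, 14.4 and 10.8%, and for GAGAGA on either strand 24.0, 26.0 and 17.3%. None of these motifs contains another, but their ends can overlap. A match is a description of the sequence and not evidence of a bound site.

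Paired sites lay more often inside transcribed sequence than unpaired sites. Of the paired maxima, 276 (40.2%, 36.6 to 43.9%) were in coding exons, compared with 727 (34.1%, 32.2 to 36.2%) of the unpaired. The order was the opposite for maxima between genes, with 186 paired (27.1%, 23.9 to 30.5%) and 747 unpaired (35.1%, 33.1 to 37.1%). Untranslated exons held 19.1 and 18.3%, introns 6.55 and 6.95%, and noncoding genes or pseudogenes 7.13 and 5.50%. The intervals were apart for coding exons and for intergenic maxima, but they treat sites of the same group as independent, and no test was run. In groups of 2 the shares were 38.7% (34.4 to 43.1%) in coding exons and 29.8% (25.9 to 34.1%) between genes, which overlapped with the unpaired intervals. In groups of 3 or more they were 43.6% (37.1 to 50.3%) and 20.9% (15.9 to 26.8%). In coding exons only 3 of the 276 paired sites had a CArG box (1.09%, 0.37 to 3.15%), near the share of the tiled windows, whereas between genes 13 of 186 did (6.99%, 4.13 to 11.6%).

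Very short sites were about as frequent in both sets, with a length of at most 20 bp at 113 paired (16.4%, 13.9 to 19.4%) and 311 unpaired sites (14.6%, 13.2 to 16.2%). The base composition had the same median, 40.8% G and C in the windows around the maximum.

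By the position of the maxima, 166 pairs (42.3%) lay within the same protein-coding gene, and these were the closest ones, with a median spacing of 468 bp. In 125 pairs (31.9%) 1 maximum was inside and 1 outside a protein-coding gene, at a median of 1067 bp. Another 66 pairs (16.8%) shared an interval between neighbouring protein-coding genes, which was divergent, with both genes reading away from it, in 26 cases, tandem in 25 and convergent in 15. The other 35 pairs were in different genes or intervals. The median score ratio was 1.31 within genes, 1.42 for the pairs with 1 member outside, and 1.26 for different genes or intervals. For the shared intervals it was 1.35 in divergent, 1.26 in tandem and 1.86 in convergent ones.

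A pair was assigned to a gene if both of its maxima fell into the gene's window, from 3000 bp before the start codon to 1000 bp behind the stop codon. In this way 558 genes had a pair. Of these, 434 were protein-coding, 11.3% (10.4 to 12.4%) of the 3829 protein-coding genes with any site. A protein-coding gene was in reach of both sites in 346 pairs, more than 1 in 165 of them, and in 19 pairs there was no gene at all. The gene that a pair acts on is not known from these data where it reached several.

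Over the 538 combinations of a pair and a protein-coding gene, both maxima were upstream in 242. There the nearer maximum was a median of 1143 bp and the farther 1841 bp from the start codon. The nearer one scored higher in 113 of these, the farther in 103, and 26 were equal, so that neither position held the stronger site more often by a wide margin. Both lay between start and stop codon in 105 combinations, upstream and inside in 73, inside and downstream in 76, both downstream in 29, and on either side of the gene in 13.

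Lists of 175 genes in 11 groups, chosen for roles connected with FUL, fruits, hormones and light, held 79 genes with any site and 16 with a pair. These 16 are shown in the plot of sites around the start codon. In the lists of AP2-type repressors, fruit patterning genes, meristem genes and brassinosteroid genes 0 genes had a pair, and 6 of 11, 8 of 24, 3 of 13 and 4 of 5 had a site. Pairs that lay beyond the window of a gene were not counted for it. Of all protein-coding genes with a site 11.3% had a pair, so that few pairs would be found among so few genes in any case. As the lists were chosen with results of these data known, their counts are descriptions.

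**Figure D4:**
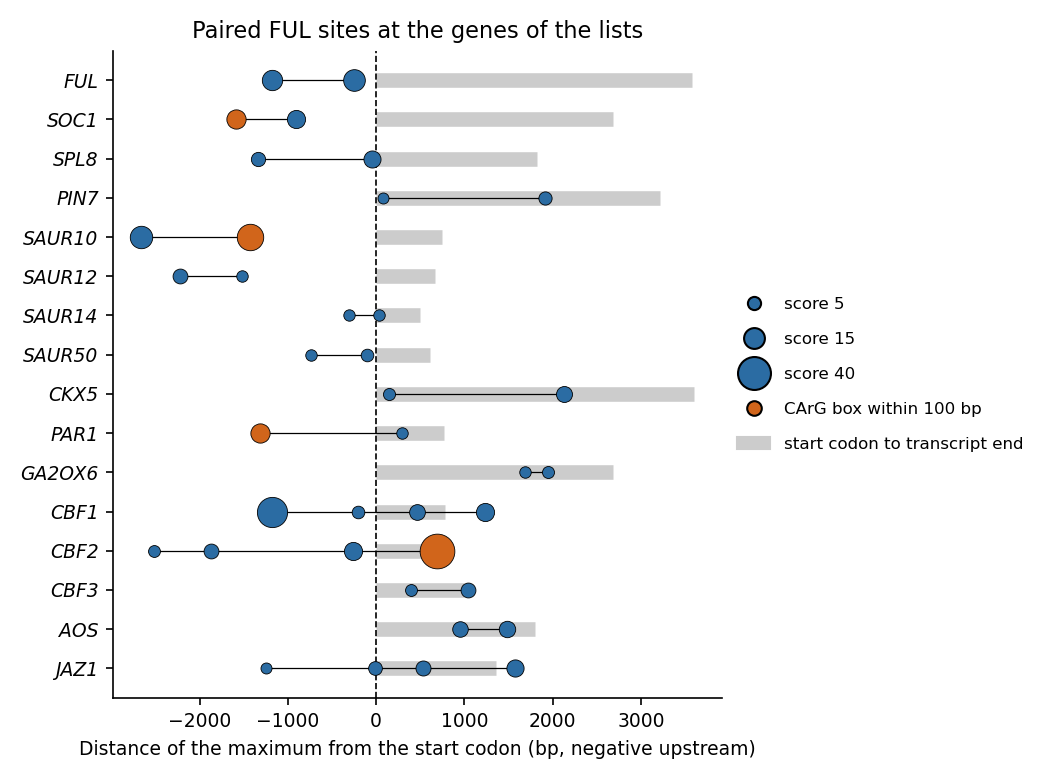
Positions of paired FUL sites in bp from the start codon (x axis, negative upstream) for the 16 list genes with a pair (rows). Circle area rises with the score, orange circles mark a CArG box at most 100 bp away, the grey bar runs from the start codon to the transcript end, and the circles at *CBF2* (44.60) and *CBF1* (33.42) are the biggest.

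Among 33 MADS factors, 12 had a site and 2 a pair, *FUL* and *SOC1*. *SOC1* (*AGL20*), which integrates flowering signals, had scores of 12.59 at 1587 bp and 11.03 at 905 bp upstream of its start codon. The farther one held the box shown above at 51.5 bp from the maximum, and the nearer one fell in an untranslated exon. At both genes the scores of the members differed by less than 1.2-fold, with ratios of 1.15 at *FUL* and 1.14 at *SOC1*.

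Among 17 flowering integrators and *SPL* genes, 5 had a site and 1 a pair. *SPL8*, which acts in fertility and gibberellin responses, had 6.15 at 1341 bp and 9.55 at 46 bp upstream of the start codon. Among 16 gibberellin genes, *GA2OX6*, which inactivates gibberellins, was the only one of the 9 list genes with a site that had a pair. Its maxima were inside the gene, 257 bp apart, with scores of 3.4 and 3.85.

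In the auxin list, 13 of 24 genes had a site and 5 a pair (38.5% of those with a site, beside 11.3% over all protein-coding genes with a site). Apart from *SAUR10*, *SAUR12* had 6.81 at 2219 bp and 3.4 at 1523 bp upstream, *SAUR50* had 3.4 at 738 bp and 4.43 at 106 bp upstream, and *SAUR14* had 3.33 at 313 bp upstream and 3.4 at 30 bp inside. A further site in the window of *SAUR14*, which was not part of a pair, scored 125.66. *PIN7*, an auxin efflux carrier, had 3 and 5.05 at 73 and 1915 bp from the start codon, within the gene. The *SAUR10* pair was thus the only one of the 5 in which both scores were above 7.

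The word auxin stood in the product name of 16 of the 434 protein-coding genes with a pair (3.69%, 2.28 to 5.90%). It stood in 25 of the 3395 genes with a site but no pair (0.74%, 0.50 to 1.08%) and in 125 of the 23615 without a site (0.53%, 0.44 to 0.63%). These genes are not independent, since neighbouring *SAUR* genes share pairs, and the 16 genes went back to 13 pairs. Of 78 genes named as SAUR-like in the annotation, 23 had a site and 9 a pair, from 6 distinct pairs. *SAUR26* and *SAUR28* shared scores of 7.63 and 8.14 at a distance of 1932 bp. *SAUR24* had 11.24 at 571 bp upstream and 3.4 at 67 bp inside. Of 20 genes of the GH3 type, which conjugate hormones to amino acids, 7 had a site and 3 a pair, namely *GH3.1* (3.4 and 3.4), *GH3.3* and *WES1* (4.43 and 8.14). The word, these gene families and the genes named from them were chosen after values had been seen. By comparison, kinase stood in the product names of 2.53% of genes with a pair and 5.15% of genes with a site but no pair, and homeobox in 0 of 434 (upper Wilson limit 0.88%) and 0.44%.

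*CKX5*, 1 of 3 cytokinin oxidase genes with a site out of 7, had a pair that spanned most of the gene. A score of 8.14 lay in an intron, 2128 bp from the start codon, and 3.95 in the coding sequence, at 145 bp. At 1983 bp it was among the most widely spaced pairs. The others were 1997 bp apart in *AT5G08770* and *AT5G08780* (4.37 and 4.43), and 1985 bp apart with 1 maximum in the gibberellin biosynthesis gene *GA20OX3* and 1 at 1647 bp from it (6.47 and 4.43). *GA20OX3*, which was not in the gibberellin list, also had a pair of its own inside the gene, with 3.4 and 6.47 at a distance of 338 bp. *PAR1*, a repressor of the shade response and the only pair among 13 light and shade genes, of which 7 had a site, had 12.59 with the box shown above at 1317 bp upstream and 3.4 at 293 bp inside.

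In the list of cold, jasmonate and abscisic acid genes, 9 of 12 had a site and 5 a pair (55.6% of those with a site, beside the same 11.3%), and 3 of these 5 had more than a single pair. *CBF1*, *CBF2* and *CBF3* are neighbouring genes for transcription factors of the cold response. At *CBF2* the scores were 44.60 with a box at 684 bp downstream of the start codon, in the untranslated exon, then 11.03 at 258 bp, 6.81 at 1876 bp and 3.75 at 2517 bp upstream. The last of these maxima, together with that of 6.81, also counted for *CBF3*, whose coding exon held the 3.75. *CBF1* had 33.42 at 1180 bp and 4.43 at 206 bp upstream, 7.88 inside the gene at 458 bp and 11.03 behind the gene at 1228 bp from the start codon. The strongest site was therefore upstream at *CBF1* and at the 3′ end of the gene at *CBF2*. *AOS*, which makes the allene oxide precursor of jasmonate, had 7.63 and 8.71 inside the gene, 537 bp apart. *JAZ1*, a repressor of jasmonate responses, had 4 sites, with scores of 3 and 5.57 upstream, 7 inside and 9.69 downstream. The strongest of them, 9.69, lay in the coding exon of the neighbouring gene *AT1G19190*.

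The groups with most sites usually included a site within a gene. The 26 groups of 4 or more held 118 sites, and 24 of these groups had a site within the principal gene. That was the protein-coding gene whose window held most sites of the group, and ties went to the gene with more sites inside it. This choice favours such an overlap, and no share was computed for other regions of this length. The median span of these 26 groups was 2968 bp. The highest score in a group had a median of 8.35, against 5.57 in groups of 2, but more sites give more chances of a high score. By single site, the median score was 4.43 in groups of 4 or more and 4.27 in groups of 2. A CArG box was present at 4 of the 118 sites (3.39%, 1.33 to 8.39%), 1 each at *LSH6*, *CBF2*, *AT5G67290* and behind *ERF4*. The shares of all paired sites (3.78%) and of unpaired sites (5.07%) lay within this interval.

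The *LOX3* gene, a lipoxygenase at the start of jasmonate synthesis, had 7 sites, all within the gene. In order from the start of the gene the scores were 3.4, 3.95, 4.43, 4.74, 4.43, 6.81 and 3.47, over 3601 bp. The other group of 7 was in *AT1G79245*, a transcribed pseudogene between *MST1* and *AGC1.7*. Its scores, in the order of the chromosome, were 6.70, 4.43, 9.12, 4.90, 6.81, 3.4 and 14.22, and none of these windows had a further copy. Neither group of 7 had a CArG box, and the highest scores in them were 6.81 and 14.22.

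The groups of 6 had their strongest sites just behind a gene. Behind the pair at *ERF4* described above, scores of 11.03, 4.43, 8.14 and 5.28 followed downstream, the last at 4357 bp from the start codon and partly in noncoding RNA genes. *TCP9*, a transcription factor gene of the TCP family, had 22.77 at 1640 bp downstream of its start codon, 3 and 3.4 around the start codon, and 6.73, 3.75 and 3.85 at 751, 1045 and 1303 bp upstream.

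**Figure D5:**
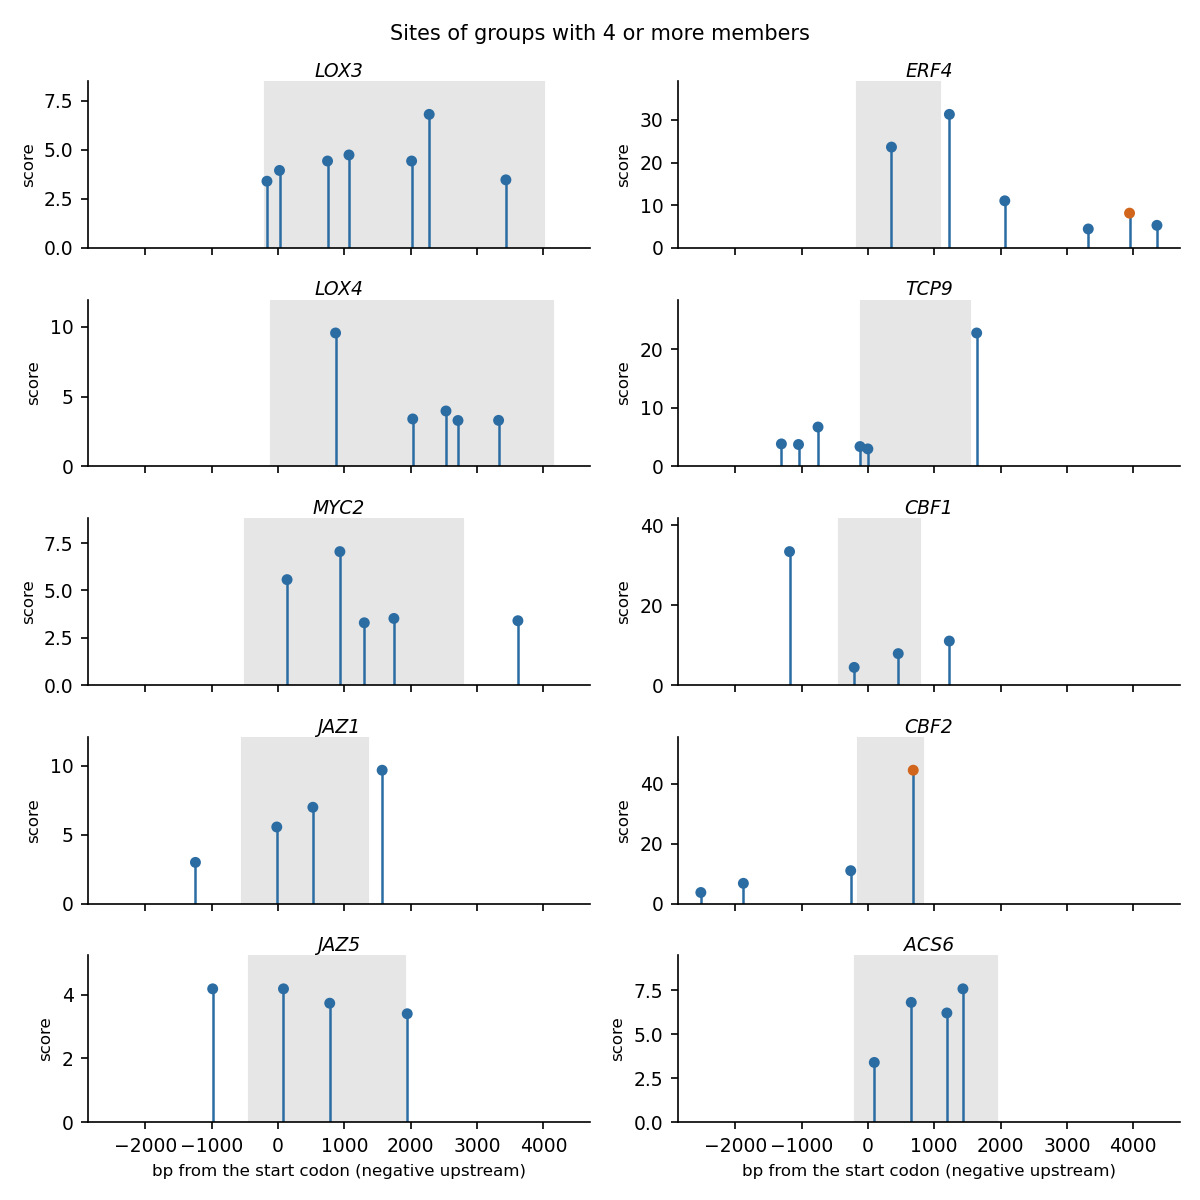
Score (y axis, 1 scale per panel) of each site against its distance from the start codon in bp (x axis, negative upstream) for 10 of the 26 groups with 4 or more sites. Grey areas are the transcribed region of the named gene, orange points have a CArG box within 100 bp, all 7 *LOX3* sites lie in the grey area, and the highest *TCP9* site (22.77) lies just behind it.

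Several other genes with such groups take part in jasmonate synthesis or response. They were picked after their values had been seen. *LOX4*, the closest relative of *LOX3*, had 5 sites within the gene with scores of 9.55, 3.4, 3.97, 3.29 and 3.30. None of the *LOX3* and *LOX4* windows had a copy elsewhere at the identity given above. *MYC2*, the main transcription factor of jasmonate responses, had 4 sites in its coding exon (5.57, 7.05, 3.29 and 3.52) and a further one of 3.4 behind the gene, but an overlapping gene, *AT1G32630*, is annotated at the same place. *JAZ5* had 4 sites between 3.4 and 4.18, and the one of 3.4 lay in an untranslated exon of the neighbouring gene *UBP1B*. Taking 26 genes of jasmonate synthesis and response together, 14 had a site and 7 a pair, which is 50% of those with a site, beside 11.3% over all protein-coding genes with a site. This list was drawn up after values had been seen, and no test was made of it.

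Among the other groups, *ACS6*, an enzyme of ethylene synthesis, had 4 sites in its coding exons with 3.4, 6.81, 6.21 and 7.58. The group at *RAP2.4*, an ERF-type transcription factor gene, had 5 sites of 5.57, 5.28, 5.93, 6.81 and 6.81, 3 of them in the coding exon. The last one, at 2431 bp downstream of the start codon, lay outside the window of the gene. *HAI2*, a phosphatase of abscisic acid signalling, had 8.14 and 4.05 at the end of the gene and 4.43 and 6.81 upstream. *LSH6* had its strongest site, 14.22, at 1666 bp upstream with the box shown above, and 5.57 at 92 bp upstream. These genes were also named after their values had been seen, and the groups of 4 or more as a whole had sites in coding exons about as often as all pairs did (39.8%, 31.5 to 48.8%).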

How the data were processed

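The authors mapped reads of 2 ChIP and 2 input libraries to TAIR9 with SOAPv2, discarded reads with several matches or from the organelles, and called sites with CSAR against the input. Versions are not given in the sources used here. The deposited score is 1 value per site, which the authors combined over both replicates, so no spread between replicates and no depth can be given. The deposited start, end and maximum are positions in bp on TAIR9, and 0 columns of values per sample were left unused. All 2831 sites ended within the chromosomes of TAIR10.1, from which RefSeq genes and sequences were taken. The TAIR9 and TAIR10.1 releases share their chromosome sequences.

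Adjacent pairs were consecutive maxima 100 to 2000 bp apart, and groups were runs of such pairs. CArG boxes were searched within 100 bp of each maximum and compared with all tiled windows without undetermined bases. Copies were searched with BLAST 2.17.0+. Shares have 95% Wilson intervals, and no significance test was run. Python 3.11.15, numpy 2.4.6, pandas and matplotlib were used, and the search for pairs and boxes was tested on simulated lists. Named genes were those of the 10 pairs with the highest lower score, of pairs with a box at both maxima, of the 3 groups with the most sites (a tie named both), of list genes with a pair, and of the 3 most unequal, closest and widest pairs. Others are marked as chosen after values were seen. The members and lists were chosen with earlier results of these data known. Alternatives changed the score limit, the distance limits, the cluster, the position used, the motif window and the gene window.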

Additional observations from a re-analysis of the deposited data

How the results depend on the processing

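Each of 8 results was recomputed under the alternatives, giving 56 values, of which 38 stayed within 1.5-fold (counts) or within the 95% interval of the reported value. With only sites of a score of at least 5.6 there were 89 paired sites, 50 adjacent pairs and 67 genes with a pair, the median spacing was 999 bp, equal scores made up 2.00% and CArG boxes 7.87%. With a smallest distance of 300 bp the median spacing was 975 bp and the median score ratio 1.46. A largest distance of 1000 bp gave 443 paired sites, 244 pairs, a median of 433 bp and 0 pairs with a box at both maxima, and one of 3000 bp gave a median of 985 bp and 2 such pairs. The median spacing thus followed the distance limits, which bound it by construction. A window of 50 bp to each side lowered the share of paired sites with a box to 2.47%, and 1 mismatch raised it to 28.5% and the pairs with a box at both maxima from 1 to 34. Taking only the nearest gene of both sites left 211 genes. Keeping the ribosomal RNA cluster, using midpoints or taking only groups of exactly 2 sites moved no value beyond these bounds.

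No paired analysis was possible because the list holds 1 combined score per site and no values per replicate, and the alternatives for single replicates and for a replicate block were not run for the same reason. The unknown depth limits what low scores, which make up most pairs, can show.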
